A study of Mus musculus with 10 samples.

Results

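The genes of the epidermal growth factor (EGF) receptor family and its ligands were followed in mouse mammary gland: the receptors Egfr, Erbb2, Erbb3 and Erbb4 and the ligands Egf, Tgfa, Btc, Hbegf, Nrg1 and Nrg4. These 10 genes were taken by name, through their Ensembl identifiers, from the 46983 genes that were counted in each library. RNA had been extracted from right thoracic mammary fat pads of virgin female C57BL/6 mice at post-natal day (PND) 130, with 1 library per mouse. Mice had been fed an AIN93M-type diet with 1 mg folic acid (FA) per kg (control FA, CFA, n = 5) or 5 mg FA per kg (high FA, HFA, n = 5) as adults, and both groups were then moved to the same AIN93M maintenance diet for several weeks before tissue was taken. The labels give no engineered allele, and the comparison asked whether FA intake left a difference in expression after the diet had ended. Libraries are named by their sample titles, T1224 to T1334 for CFA and T2214 to T2334 for HFA.

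ErbB receptors are receptor tyrosine kinases that signal as pairs. EGF, TGF-alpha and amphiregulin bind EGFR, betacellulin and HB-EGF bind EGFR and ERBB4, and neuregulins bind ERBB3 or ERBB4, while ERBB2 has no known ligand of its own and ERBB3 has little kinase activity and relies on its partners. Most ligands are made as membrane proteins that sheddases cut free, and the paired receptors signal through RAS and ERK, PI3K and AKT, and STAT proteins. In the mammary gland, EGFR in the stroma and amphiregulin from the epithelium take part in ductal growth, and ERBB4 takes part in lobule development and lactation.

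The whole fat pad was sequenced, so each value is a mixture of cell types, and fewer cells of a type cannot be told apart from less RNA per cell. The depth on genes was 7672199 to 14829291 reads. Values are CPM, counts scaled to a common total of reads on genes and adjusted by the trimmed mean of M values (TMM). Luminal, basal and fat cell markers were present in all 10 libraries. B and T cell markers summed to 380 to 2703 CPM in 3 libraries, the CFA libraries T1234 and T1334 and the HFA library T2334, and to 8.78 to 13.1 CPM in the other 7, so results are also given without these 3. Summed skeletal muscle markers ranged from 658 CPM in T2334 to 50960 CPM in T2314. The median correlation of T2334 with the other libraries, over log2 CPM of all genes tested, was 0.798, against 0.918 to 0.970 for the others. No source says which mice shared a cage, and p-values measure the spread between mice.

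Promoter sequence is shown for the 4 members whose level followed a list of cell type markers across libraries, as described further on. Each window is the 250 bases before the start site in RefSeq (GRCm38.p6), written 5′ to 3′ on the strand of the gene, and capitals mark matches on either strand to a GC box (GGGCGG) or an E-box (CANNTG). The windows lie at chr11:16751953-16752202 (plus strand) for Egfr, chr11:98412234-98412483 (plus strand) for Erbb2, chr3:129755323-129755572 (minus strand) for Egf and chr9:55283626-55283875 (minus strand) for Nrg4.
Egfr: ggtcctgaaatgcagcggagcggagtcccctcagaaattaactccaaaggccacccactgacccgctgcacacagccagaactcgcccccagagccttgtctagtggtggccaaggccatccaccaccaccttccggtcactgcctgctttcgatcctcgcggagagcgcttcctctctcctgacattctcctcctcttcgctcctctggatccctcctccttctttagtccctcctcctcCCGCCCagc
Erbb2: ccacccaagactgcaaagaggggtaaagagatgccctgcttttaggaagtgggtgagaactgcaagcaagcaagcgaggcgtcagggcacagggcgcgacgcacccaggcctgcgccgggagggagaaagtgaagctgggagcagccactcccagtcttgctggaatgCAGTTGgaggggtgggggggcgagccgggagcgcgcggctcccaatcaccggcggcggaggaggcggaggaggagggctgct
Egf: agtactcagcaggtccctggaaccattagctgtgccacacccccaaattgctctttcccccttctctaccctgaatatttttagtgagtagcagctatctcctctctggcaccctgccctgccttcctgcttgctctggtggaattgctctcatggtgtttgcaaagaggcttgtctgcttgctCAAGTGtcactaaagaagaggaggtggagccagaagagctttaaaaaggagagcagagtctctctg
Nrg4: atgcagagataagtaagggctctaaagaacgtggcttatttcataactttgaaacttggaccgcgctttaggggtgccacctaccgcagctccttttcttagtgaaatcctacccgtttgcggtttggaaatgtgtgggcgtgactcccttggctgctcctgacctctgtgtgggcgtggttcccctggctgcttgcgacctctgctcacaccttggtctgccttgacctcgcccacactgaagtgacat
The Egfr window held a GC box at position -9, counted back from the start site, and no E-box. The Erbb2 and Egf windows held an E-box at position -82 and -66, respectively, and no GC box, and the Nrg4 window held neither. None of the 4 windows held a TATA box (TATAAA) or an AP-2 motif (GCCNNNGGC). Among 32851 RefSeq windows of the same length, 32.7% held the GC box, 66.2% the E-box, 12.4% the TATA box and 13.7% the AP-2 motif. G and C made up 60.8% of the Egfr window, 66.0% of the Erbb2 window, 50.4% of the Egf window and 53.2% of the Nrg4 window, against a median of 52.4% over all windows. The Egf window lies within an exon of the antisense gene 6330410L21Rik, and the last 14 bases of the Erbb2 window lie within the annotated first exon. Egf had another RefSeq window, at chr3:129725087-129725336 (minus strand), with an E-box at position -188, which is not shown. The Nrg4 window lies inside the annotated span of the gene (55220222 to 55326844), before an internal start site, so it need not be the only promoter. Matches are letters only, and no binding was measured.

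Divided by exon length, Erbb3 was the most abundant member, with a mean of 14.3 CPM per kilobase ± 6.23 (SD, n = 10), followed by Nrg4 with 13.0 ± 2.98 and Erbb2 with 7.73 ± 3.13. Egfr came next with 5.85 ± 2.66 CPM per kilobase, and Egf, Btc and Tgfa followed with 2.04 ± 1.24, 1.66 ± 0.63 and 1.20 ± 0.243. Hbegf (0.546 ± 0.144 CPM per kilobase) and Erbb4 (0.519 ± 0.206) were near each other, and Nrg1 was lowest with 0.0365 ± 0.0260. Several neighbours in this order changed places between libraries. Erbb3 exceeded Nrg4 in 6 of 10 libraries, Egf exceeded Btc in 6 of 10 and Hbegf exceeded Erbb4 in 6 of 10, so these neighbours did not differ beyond their spread. Nrg4 exceeded Erbb2 in 8 of 10 libraries, Btc exceeded Tgfa in 7 of 10, and Erbb2 exceeded Egfr in 9 of 10. Egfr exceeded Egf in 9 of 10 libraries, and Tgfa exceeded Hbegf, and Erbb4 exceeded Nrg1, in 10 of 10. Among the 4 receptors, Erbb3 made up 49.4% ± 6.37 of the summed level per kilobase, Erbb2 27.4% ± 4.00, Egfr 21.2% ± 6.28 and Erbb4 2.01% ± 0.900 (mean ± SD, n = 10). The Egfr share ran from 7.69% to 32.0% over the libraries.

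**Figure D1:**
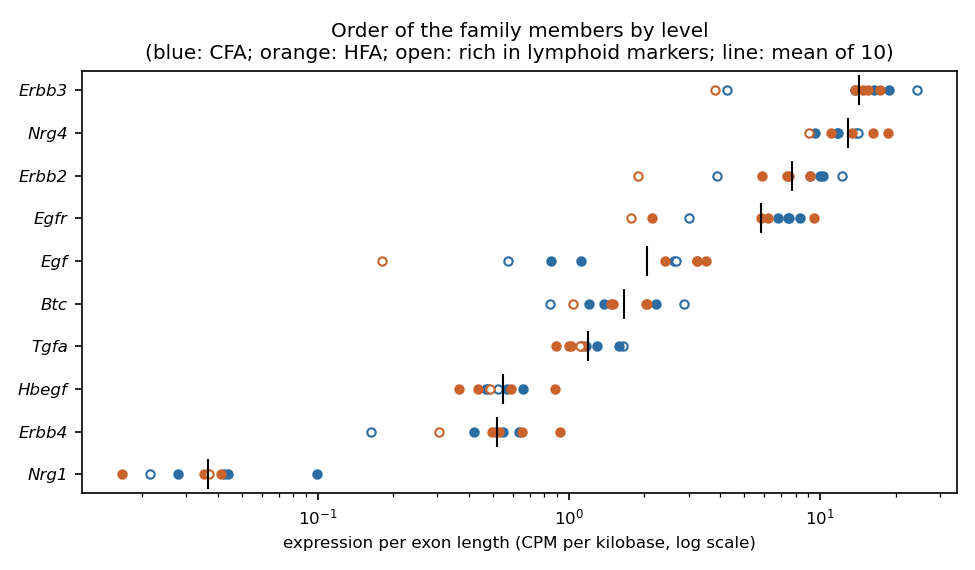
Expression of the 10 family members per kilobase of exon (CPM per kilobase, log scale) in each library, blue for CFA and orange for HFA, with open circles for the 3 libraries rich in lymphoid markers and a black line at the mean of the 10 libraries. Erbb3, Nrg4, Erbb2 and Egfr lie at the top and Nrg1 lies lowest; the library in which Nrg1 had no count has no point on the log axis.

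The length used sets part of this order. All exons of a gene were joined, and with the longest annotated transcript in place of this union Nrg4 rose to 37.6 CPM per kilobase, above Erbb3, and Egf to 4.84, while the other values are given in the last section. Nrg4 has 13 annotated transcripts, Egf has 9 and Nrg1 has 18, whereas Erbb3 has 1. Exons of Egf share 1107 bases with the antisense genes Gm42697 and 6330410L21Rik, which were counted at up to 0.299 and 2.99 CPM. Exons of Nrg4 share 368 bases with Fbxo22 on the other strand, which was counted at 32.5 to 42.6 CPM, and 177 bases with the pseudogene Gm15625. The libraries do not keep strand, so reads in shared bases could not be assigned to either gene, and the values of Egf and Nrg4 are uncertain to that extent.

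Egfr (ENSMUSG00000020122, GRCm38 chromosome 11, 16752203 to 16918158, plus strand) binds EGF, TGF-alpha, amphiregulin and other ligands. In the CFA libraries T1224, T1234, T1314, T1324 and T1334 it stood at 93.9, 84.3, 85.0, 77.2 and 34.0 CPM, and in the HFA libraries T2214, T2224, T2234, T2314 and T2334 at 66.1, 107, 70.1, 24.3 and 20.1 CPM. The groups overlapped, with the highest value in an HFA library and low values in T1334, T2314 and T2334. The mean was 74.9 CPM ± 23.6 (SD, n = 5) in CFA and 57.5 CPM ± 36.0 (n = 5) in HFA, a log2 fold change (HFA minus CFA, here and below) of -0.38 (SE 0.45, adjusted p = 0.858, quasi-likelihood test of edgeR). Summed fibroblast markers were also low in those 3 libraries, at 564 to 1245 CPM against 2554 to 4145 CPM in the other 7.

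Erbb2 (ENSMUSG00000062312, chromosome 11, 98412470 to 98437716, plus strand) is the preferred partner of the other receptors. It was measured at 53.8, 63.6, 47.4, 51.9 and 20.3 CPM in the CFA libraries and at 38.6, 30.5, 47.4, 39.2 and 9.87 CPM in the HFA libraries, in the order given for Egfr, which is kept below. The lowest value of each group came from a library rich in lymphoid markers (T1334 and T2334), and the groups overlapped. The highest value, 63.6 CPM, came from T1234, which was also rich in lymphoid markers. The means of 47.4 CPM ± 16.3 and 33.1 CPM ± 14.3 (SD, n = 5 each) differed by a log2 fold change of -0.52 (SE 0.40, adjusted p = 0.776, edgeR). Without the 3 libraries rich in lymphoid markers the log2 fold change was -0.39 (SE 0.15, unadjusted p = 0.0265, adjusted p = 0.158, edgeR). In that fit 3687 of 15759 genes had an unadjusted p under 0.05.

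Erbb3 (ENSMUSG00000018166, chromosome 10, 128567523 to 128589652, minus strand) binds neuregulins and couples strongly to PI3K. It was measured at 113, 147, 98.9, 82.8 and 25.6 CPM in CFA and at 89.2, 82.5, 93.4, 104 and 23.0 CPM in HFA. Again T1334 and T2334 were lowest, and the remaining 8 libraries lay between 82.5 and 147 CPM with the groups overlapping. T1234, rich in lymphoid markers as well, was highest at 147 CPM. The log2 fold change was -0.25 (SE 0.46, adjusted p = 0.910, edgeR), and -0.09 (SE 0.13, adjusted p = 0.724) without the 3 libraries rich in lymphoid markers.

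Erbb4 (ENSMUSG00000062209, chromosome 1, 68032186 to 69108059, minus strand), which binds neuregulins, betacellulin and HB-EGF, was measured at 7.83, 6.36, 6.76, 5.20 and 2.02 CPM in CFA and at 8.08, 6.12, 6.53, 11.4 and 3.75 CPM in HFA. The highest value lay in the HFA library T2314 and the lowest in the CFA library T1334, with the groups overlapping. It was the only receptor with a positive log2 fold change, at 0.35 (SE 0.38, adjusted p = 0.845, edgeR).

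Epithelial markers were low in T1334 and T2334, the libraries in which Erbb2 and Erbb3 were lowest. Summed luminal markers were 482 and 321 CPM in T1334 and T2334 and 944 to 2131 CPM in the other 8 libraries, and basal markers were 250 and 97.8 CPM in those libraries and 276 to 879 CPM elsewhere. With the mean log2 CPM of luminal and basal markers as a covariate, the log2 fold change became 0.17 (SE 0.34) for Egfr, 0.09 (SE 0.13) for Erbb2, 0.59 (SE 0.17) for Erbb3 and 0.92 (SE 0.28) for Erbb4, so the sign turned for the first 3. None passed the adjusted threshold of 0.05 in that fit, with adjusted p between 0.384 and 0.792 (edgeR).

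**Figure D2:**
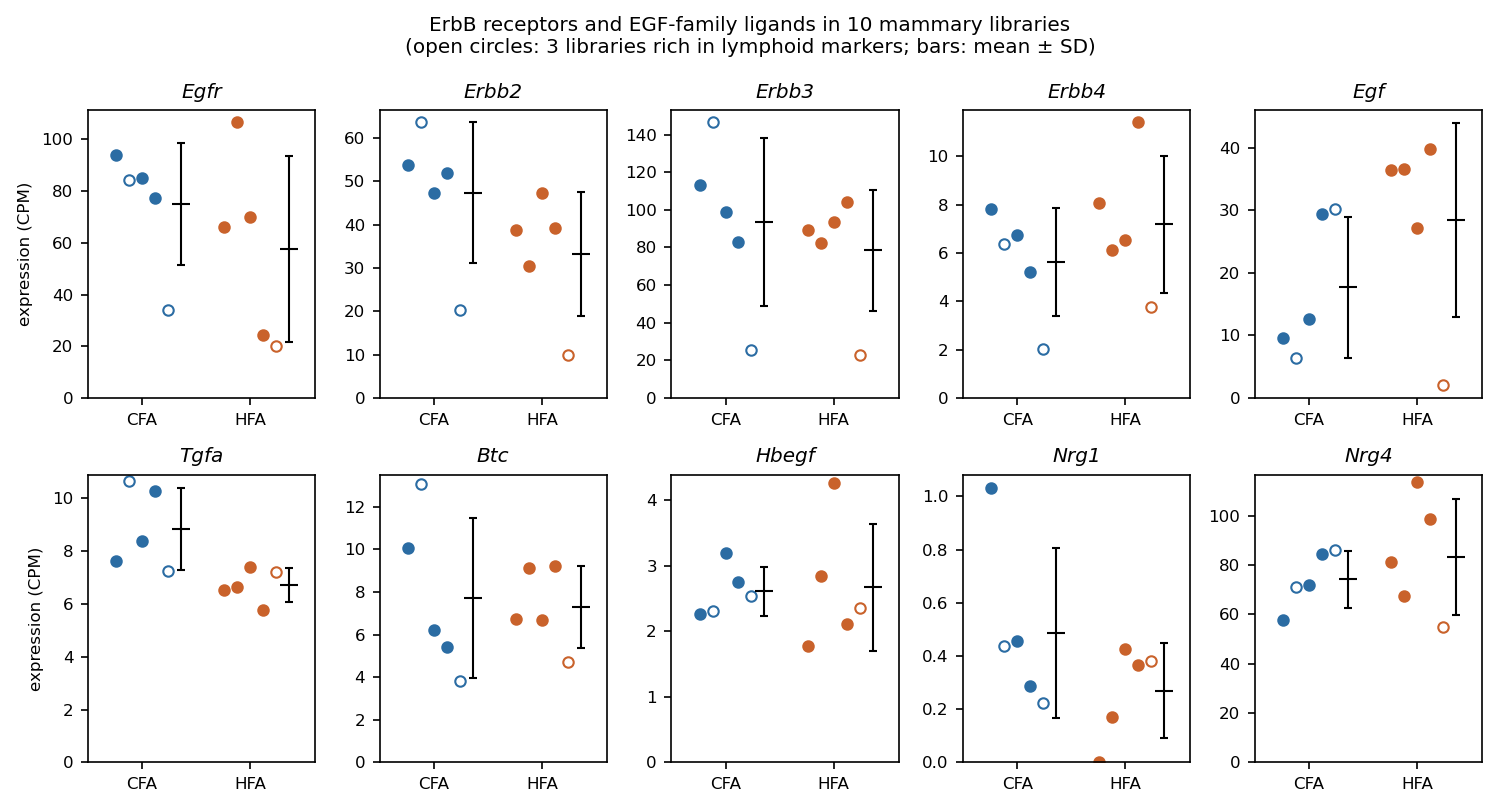
Expression (CPM, linear axes from 0) of each of the 10 family members in the 5 CFA libraries (blue) and the 5 HFA libraries (orange), with the mean ± SD of each group beside the points and open circles for the libraries rich in lymphoid markers. The groups overlapped for each gene. Egfr, Erbb2 and Erbb3 were low in the open-circle libraries T1334 and T2334, while the open-circle library T1234 held the highest Erbb2 and Erbb3. Egf was lowest in T2334 at 2.04 CPM.

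Among the ligands, Egf (ENSMUSG00000028017, chromosome 3, 129677565 to 129755316, minus strand), an EGFR ligand made in large amounts by salivary gland and kidney, was measured at 9.61, 6.47, 12.6, 29.5 and 30.1 CPM in CFA and at 36.4, 36.6, 27.2, 39.8 and 2.04 CPM in HFA. The HFA library T2334 was the lowest of all 10, while the other 4 HFA libraries lay between 27.2 and 39.8 CPM and overlapped the highest CFA libraries. The means were 17.7 CPM ± 11.3 and 28.4 CPM ± 15.5 (SD, n = 5 each), and the log2 fold change was 0.68 (SE 0.67, adjusted p = 0.830, edgeR). Without T2334 it was 0.94 (SE 0.41, unadjusted p = 0.0461, adjusted p = 0.188), and without the 3 libraries rich in lymphoid markers 1.02 (SE 0.35, unadjusted p = 0.0172, adjusted p = 0.128). An unadjusted p under 0.05 (edgeR) was common in these fits, with 4059 of 15735 genes without T2334 and 3687 of 15759 without the 3 libraries. Summed skeletal muscle markers moved with the Egf values, from 6194 to 38530 CPM among CFA libraries and from 658 to 50960 CPM among HFA libraries. With muscle markers as a covariate the log2 fold change of Egf was 0.31 (SE 0.20, adjusted p = 0.452, edgeR). Of 4 salivary markers, Muc19, Smr3a and Klk1 were at or near 0, with none above 1.97 CPM in a library, while Aqp5, a water channel that is also made in other tissues, was at 20.5 to 77.8 CPM in CFA and 29.0 to 187 CPM in HFA (log2 fold change 0.94, not past the adjusted threshold).

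Tgfa (ENSMUSG00000029999, chromosome 6, 86195223 to 86275719, plus strand), another EGFR ligand, was measured at 7.62, 10.6, 8.39, 10.3 and 7.24 CPM in CFA and at 6.53, 6.64, 7.38, 5.76 and 7.19 CPM in HFA. The groups overlapped only in that the CFA library T1334 lay below the HFA library T2234. The means of 8.83 CPM ± 1.54 and 6.70 CPM ± 0.636 (SD, n = 5 each) differed by a log2 fold change of -0.40 (SE 0.16, unadjusted p = 0.0344, adjusted p = 0.656, edgeR). Its log2 fold change stayed between -0.49 and -0.32 under the 24 alternative settings that were run, and the adjusted p under them was 0.132 to 0.999.

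Btc (ENSMUSG00000082361, chromosome 5, 91357261 to 91402994, minus strand), which encodes betacellulin, was measured at 10.1, 13.1, 6.24, 5.42 and 3.81 CPM in CFA and at 6.75, 9.14, 6.67, 9.23 and 4.71 CPM in HFA. CFA libraries held both the highest and the lowest value, and the log2 fold change was -0.08 (SE 0.34, adjusted p = 0.963, edgeR). Hbegf (ENSMUSG00000024486, chromosome 18, 36504927 to 36515805, minus strand), which encodes heparin-binding EGF-like growth factor, was measured at 2.27, 2.30, 3.19, 2.75 and 2.54 CPM in CFA and at 1.77, 2.85, 4.26, 2.10 and 2.35 CPM in HFA. These values rest on 16 to 49 reads per library, the HFA group spanned the whole range, and the log2 fold change was 0.02 (SE 0.26, adjusted p = 0.988, edgeR).

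Nrg4 (ENSMUSG00000032311, chromosome 9, 55220222 to 55326844, minus strand), a ligand of ERBB4 known as a secreted factor of brown fat, was measured at 57.8, 71.1, 71.9, 84.5 and 86.0 CPM in CFA and at 81.4, 67.4, 114, 98.8 and 54.9 CPM in HFA. The HFA group held both the highest (T2234) and the lowest (T2334) value, and the log2 fold change was 0.16 (SE 0.20, adjusted p = 0.862, edgeR). Nrg1 (ENSMUSG00000062991, chromosome 8, 31814551 to 32884029, minus strand), a ligand of ERBB3 and ERBB4, had 15, 4, 7, 4 and 3 reads in the CFA libraries and 0, 2, 3, 4 and 6 reads in the HFA libraries. At this depth it did not pass the filter on low counts and was not tested.

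In all, 9 of the 10 members were tested, as part of a fit over 15610 genes. None of the 9 passed an adjusted p of 0.05 with edgeR's quasi-likelihood test, which called 0 of all genes tested (0%), with 1149 genes at an unadjusted p under 0.05. Other tools run on all genes called 33 (edgeR's likelihood ratio test), 60 (DESeq2), 0 (limma voom) and 1037 genes (limma voom with library quality weights), and none of these was a member. The smallest adjusted p of a member under any alternative was 0.0611, for Egf with quality weights. At an unadjusted p under 0.05, 1 of 9 members (Tgfa) was counted, against 7.36% of all genes tested, and the share of all genes that were lower in HFA at that threshold was 3.49%. Of the 9 members, 4 had a higher and 5 a lower mean in HFA. Their median log2 fold change was -0.08 against 0.06 over all genes. Intervals of 2 SE around the log2 fold change were widest for Egf (-0.65 to 2.01) and Erbb3 (-1.18 to 0.67) and narrowest for Tgfa (-0.72 to -0.07) and Nrg4 (-0.24 to 0.56).

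**Figure D3:**
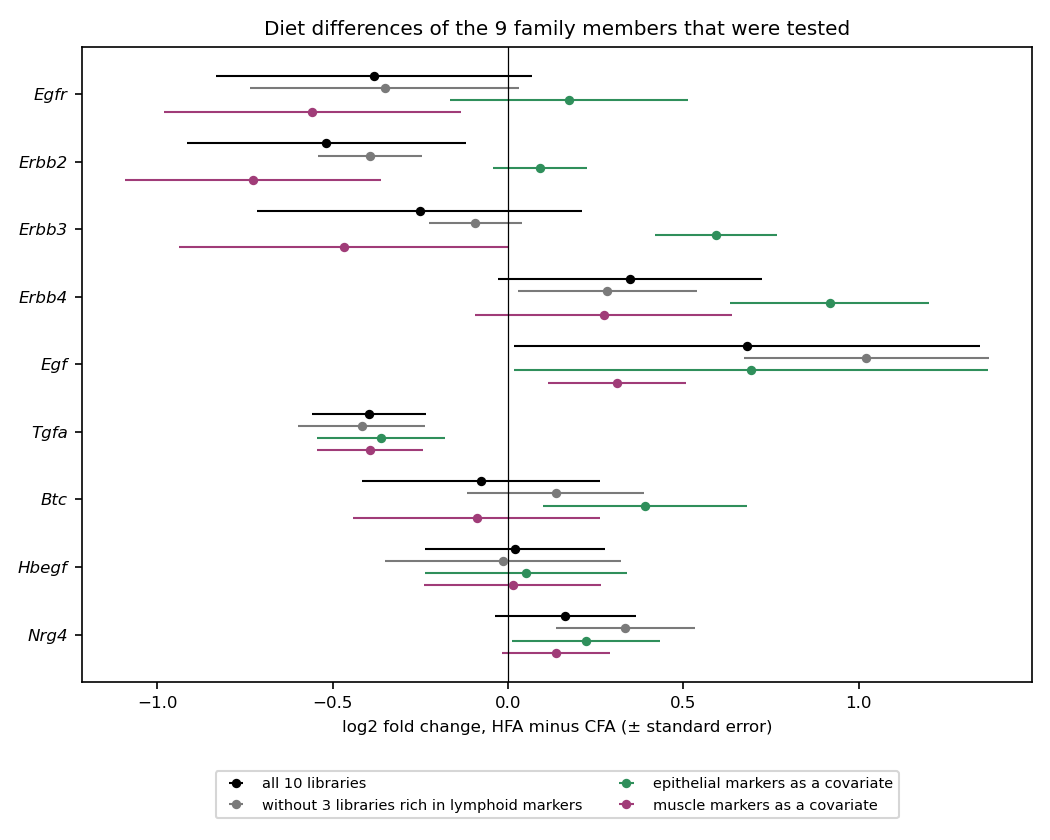
Log2 fold change of the 9 tested family members, HFA minus CFA, with bars of 1 standard error, from all 10 libraries (black), without the 3 libraries rich in lymphoid markers (grey), with epithelial markers as a covariate (green) and with muscle markers as a covariate (purple). Tgfa lay between -0.42 and -0.36 in the 4 fits, Egfr, Erbb2 and Erbb3 changed sign with the epithelial covariate, and the bar of Egf was shortest with the muscle covariate (SE 0.20).

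The spread between libraries differed widely among members. Over all 10 libraries the SD of log2 CPM was 1.38 for Egf, which placed it at the 95.6th percentile of all genes tested. It was 0.86 for Egfr, 0.80 for Erbb2 and 0.89 for Erbb3, at the 85.3rd, 83.3rd and 86.7th percentile. Tgfa, Hbegf and Nrg4 varied less, with SDs of 0.27, 0.33 and 0.33 at the 30.9th, 41.5th and 40.9th percentile, against a median of 0.39 over all genes.

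The second digit of the library title was 2 in 2 CFA and 3 HFA libraries and 3 in 3 CFA and 2 HFA libraries, and no source used here says what it stands for. Within the libraries with digit 2, Egf had a log2 fold change of 2.07 (SE 0.24, adjusted p = 0.0229, edgeR) and was the only 1 of 9 members past the threshold, where 9.12% of all genes tested in that subset were called. The values behind it were 9.61 and 6.47 CPM in CFA against 36.4, 36.6 and 27.2 CPM in HFA, with no overlap. Summed muscle markers in the same libraries were 16128 and 6194 CPM in CFA and 38859 to 47847 CPM in HFA, and their part in the result was not tested within this subset. Within the libraries with digit 3, Egf had a log2 fold change of -0.28 (SE 1.16, adjusted p = 0.997). The values there were 12.6, 29.5 and 30.1 CPM in CFA against 39.8 (T2314) and 2.04 CPM (T2334) in HFA. These HFA values were the highest and the lowest Egf of all 10 libraries, so the negative sign rested on T2334. Egfr had log2 fold changes of -0.11 (SE 0.22) with digit 2 and -1.64 (SE 0.47, adjusted p = 0.993) with digit 3. Whether the diet effect differed with the digit was tested by an interaction term over all genes, and 0 genes passed the adjusted threshold. At an unadjusted p under 0.05 that test held 8.46% of all genes, and among the members Egfr alone (difference -1.42, adjusted p = 0.57, edgeR). With the digit as a term in the model, the log2 fold change of Egfr was -0.84 (SE 0.37, unadjusted p = 0.0453, adjusted p = 0.490, edgeR). In that fit 1553 of 15610 genes had an unadjusted p under 0.05.

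Members were set beside 9 lists of cell type markers over the 7 libraries poor in lymphoid markers, as log2 CPM of the gene against the mean log2 CPM of the list, and 81 relations were computed. Of the members, 4 followed a list in the same direction. Egfr followed fibroblast markers (Pearson's r = 0.988, two-sided exact permutation p = 0.00159, adjusted p = 0.0442, Spearman's rho = 0.964, exact permutation p = 0.00278, n = 7). Erbb2 followed luminal markers (r = 0.939, exact permutation p = 0.000992, adjusted p = 0.0442, rho = 0.964, p = 0.00278). Egf followed skeletal muscle markers (r = 0.965, exact permutation p = 0.00218, adjusted p = 0.0442, rho = 0.964, p = 0.00278). Nrg4 followed brown and beige fat markers (r = 0.957, exact permutation p = 0.00179, adjusted p = 0.0442, rho = 0.929, p = 0.00675).
Without the 2 libraries farthest from the median of each list, r was 0.782 for Egfr, 0.856 for Erbb2, 0.739 for Egf and 0.923 for Nrg4. The adjusted exact permutation p of rho was 0.0750 for the first 3 and 0.0911 for Nrg4, above the threshold. Erbb2 also ran against Schwann cell markers (r = -0.929, exact permutation p = 0.00278, adjusted p = 0.0450, rho = -0.857, adjusted p = 0.276, r = -0.781 without the 2 farthest libraries). These were the 5 relations of 81 with an adjusted p of r under 0.05. Genes and markers of a library share its scaling, and both diets are in the 7 libraries. After genes and lists were centred on the mean of each diet (3 CFA and 4 HFA libraries), r was 0.986 for Egfr with fibroblast markers, 0.924 for Erbb2 with luminal markers, 0.972 for Egf with muscle markers, 0.944 for Nrg4 with brown fat markers and -0.851 for Erbb2 with Schwann cell markers. The two-sided exact permutation p within diets was 0.0347, 0.0139, 0.00694, 0.0139 and 0.0833, respectively, and adjusted over 81 relations it was 0.338 to 0.675, where 0.00694 is the smallest p that the 144 permutations can give. Egfr also ran with other lists. With macrophage markers r was 0.922 (exact permutation p = 0.0151, adjusted p = 0.154), and -0.127 without the 2 farthest libraries. Centred by diet, r of Egfr was 0.985 with macrophage and 0.958 with endothelial markers (exact permutation p within diets = 0.0208, adjusted p = 0.338 for both). Not centred, r with endothelial markers was 0.378. Against brown and beige fat markers r of Egfr was -0.745 (adjusted exact permutation p = 0.154, rho = -0.929). Egf also ran with Schwann cell markers (r = 0.824, adjusted exact permutation p = 0.154, rho = 0.929). It ran against basal markers (r = -0.871, adjusted exact permutation p = 0.0991). Without the 2 farthest libraries these r of Egf were 0.848 and -0.756, and centred by diet 0.479 and -0.648.
Erbb3 followed none of the lists at an adjusted p of r under 0.05, and its r with luminal markers was 0.573 (exact permutation p = 0.176, adjusted p = 0.620, rho = 0.393). With the same markers r was 0.0254 for Egfr and 0.0296 for Erbb4 (exact permutation p = 0.930 and 0.942, adjusted p = 0.985 for both, n = 7). Without the 2 farthest libraries, T1224 and T2224, r with luminal markers was -0.737 for Erbb3, 0.825 for Egfr and -0.9615 for Erbb4. These 3 relations therefore hinged on those 2 libraries.

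**Figure D4:**
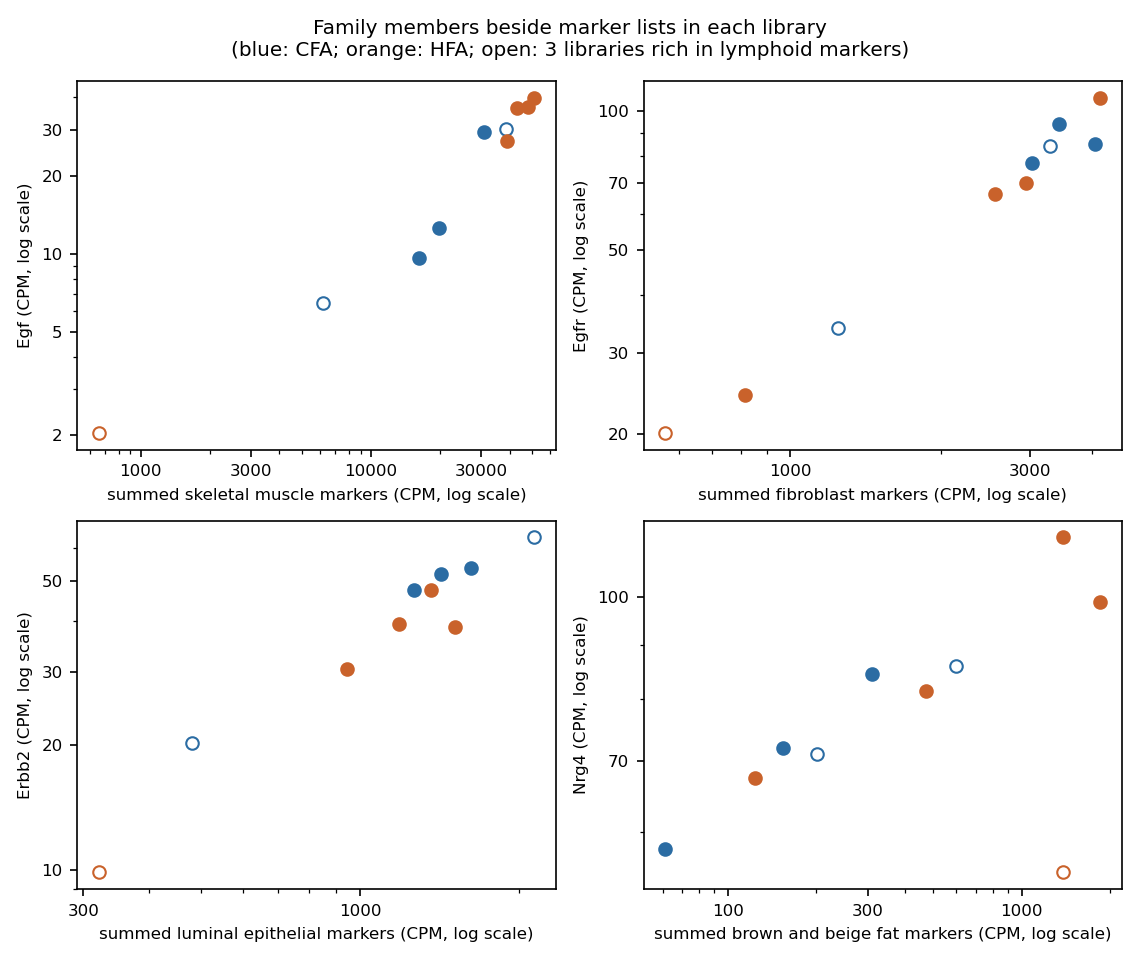
CPM of Egf, Egfr, Erbb2 and Nrg4 (log scale) against the summed CPM of skeletal muscle, fibroblast, luminal epithelial and brown and beige fat markers (log scale) in each library, blue for CFA, orange for HFA and open circles for the 3 libraries rich in lymphoid markers, which were not in the correlations. Points rise from lower left to upper right in each panel, except that Nrg4 in T2334 stands low at 54.9 CPM beside 1383 CPM of brown fat markers.

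The single genes nearest to each member, by the root mean square difference of centred log2 CPM over all 10 libraries, were listed as a description. They were Mrc2 (0.14) and Loxl2 (0.16) for Egfr, Camsap3 (0.11) and Efs (0.11) for Erbb2, and 2610528J11Rik (0.13) and Mboat2 (0.21) for Erbb3. Mrc2 encodes a collagen uptake receptor and Loxl2 a collagen cross-linking enzyme. For Egf they were Fhl3 (0.21) and Adssl1 (0.21), which encode a LIM domain protein and a muscle adenylosuccinate synthase. For Nrg4 they were Prdx3 (0.09), a mitochondrial peroxidase, and Trappc9 (0.12). Erbb4 was less closely matched, by Mettl27 (0.30), and Tgfa was nearest to Lrrc8b (0.13) and Ormdl2 (0.14). Btc was nearest to Anxa9 (0.22) and Hspa2 (0.23), and Hbegf to Wars2 (0.16) and Crry-ps (0.18).

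Of the EGF-family ligands beyond these 10 genes, Areg, which encodes amphiregulin, had the highest level per length, at 30.5 CPM per kilobase ± 23.3 (SD, n = 10). It was measured at 56.4, 60.9, 22.4, 7.37 and 34.1 CPM in CFA and at 75.5, 75.7, 2.98, 6.58 and 28.7 CPM in HFA. Both groups held libraries above 50 and below 10 CPM, and the log2 fold change was 0.07 (SE 0.83, adjusted p = 0.987, edgeR). Nrg2, another neuregulin, was measured at 0.549 to 1.75 CPM with a log2 fold change of -0.48 (SE 0.31, adjusted p = 0.745). Ereg, Epgn and Nrg3 had at most 7, 6 and 2 reads in a library and did not pass the filter.

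The 8 genes that cut ligands free or assist in it, such as Adam17, Adam10 and Rhbdf2, had log2 fold changes of -0.17 to 0.25, with 5 higher and 3 lower and a median of 0.06, the same as over all genes. None had an unadjusted p under 0.05, against the 7.36% of all genes, but limma voom with quality weights called Adam17 (log2 fold change -0.42, adjusted p = 0.0444, against -0.17 and 0.866 with edgeR), a gene singled out after its values were seen. The fit with quality weights called 1037 of 15610 genes. Among 10 genes that restrain the receptors, 5 were higher and 5 lower with a median of 0.03, and 1 had an unadjusted p under 0.05. That gene was Socs5, which targets EGFR for degradation, at 59.9 CPM ± 8.84 (SD) in the CFA group and 46.9 CPM ± 6.06 in the HFA group (log2 fold change -0.35, SE 0.14, adjusted p = 0.655 in edgeR).

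Among 26 genes that carry the signal, from adaptors to kinases and STAT proteins, 14 were higher and 12 lower (median 0.01 on the log2 scale). An unadjusted p under 0.05 (edgeR) was reached by 2 of the 26, a share near the 7.36% of all genes tested. Src, a tyrosine kinase that acts with EGFR, stood at 42.7 CPM ± 12.4 (CFA) and 29.2 CPM ± 3.76 (HFA) (log2 fold change -0.55, SE 0.22, adjusted p = 0.655, edgeR). Stat5b, a transcription factor of prolactin, growth hormone and ERBB4 signals, stood at 126 CPM ± 21.3 (CFA) and 166 CPM ± 33.8 (HFA) (log2 fold change 0.39, SE 0.18, adjusted p = 0.670). For both genes the groups overlapped.

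Of 16 genes induced downstream of ERK, 15 had a lower mean in HFA, where 40% of all genes tested were lower, and their median log2 fold change was -0.36 against 0.06 over all genes. At an unadjusted p under 0.05, 5 of 16 were lower, against 3.49% of all genes, and none passed the adjusted threshold. Ccnd1, which encodes cyclin D1, was measured at 144 CPM ± 42.7 (CFA) and 70.5 CPM ± 25.0 (HFA), with ranges of 90.2 to 195 and 49.7 to 104 CPM that overlapped (log2 fold change -1.03, SE 0.28, adjusted p = 0.648, edgeR). Spred1, an inhibitor of RAS signalling, had 86.1 CPM ± 20.8 and 57.9 CPM ± 10.5 (log2 fold change -0.57, SE 0.19, adjusted p = 0.655). Phlda1 had 16.7 CPM ± 8.43 and 7.65 CPM ± 2.54 (log2 fold change -1.13, SE 0.40, adjusted p = 0.655).
Over the 24 alternative settings 11 to 16 of these genes were lower, and the median of the list was -0.48 to -0.28 (log2). These genes are also induced by receptors other than the ErbB family, and basal markers had lower means in HFA too (5 of 5, median -1.05 on the log2 scale), with 0 of 5 past the adjusted threshold and a summed level of 250 to 879 CPM among CFA and 97.8 to 647 CPM among HFA libraries. With the epithelial covariate the log2 fold change was -0.77 (SE 0.25) for Ccnd1, -0.42 (SE 0.21) for Spred1 and -0.50 (SE 0.29) for Phlda1. In that fit 11 of the 16 genes were lower, beside 7378 of all 15610 genes. An unadjusted p under 0.05 (edgeR) was reached by 2 of the 16, beside 2021 of all 15610 genes. Spred1 and Phlda1 were no longer among the 2, and the median of the list was -0.28 (log2). Epithelial markers themselves had mostly lower means in HFA, so this fit cannot tell their part from that of the diet. The part of epithelial cells in the lower means was not tested.

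**Figure D5:**
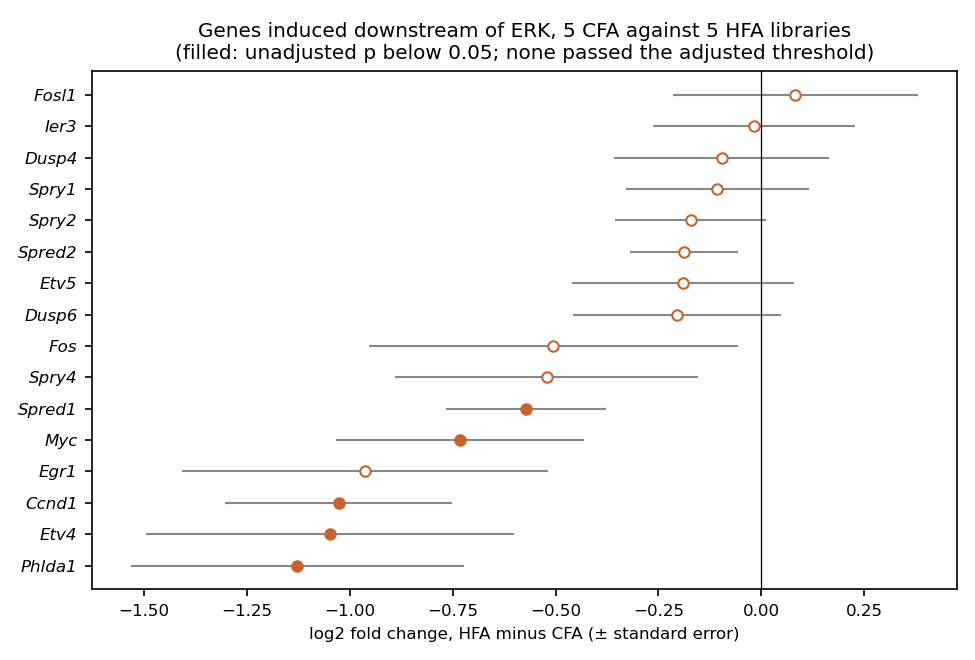
Log2 fold change, HFA minus CFA, with bars of 1 standard error, of 16 genes induced downstream of ERK, filled where the unadjusted p was under 0.05. Points lie left of 0 for 15 of the 16 genes, from -1.13 for Phlda1, and Fosl1 alone lies right of 0 at 0.08.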

How the data were processed

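Mammary gland libraries of 5 CFA and 5 HFA mice, 1 per mouse, were compared, with groups taken from the sample labels. The authors made TruSeq v2 libraries, which do not keep strand, aligned the reads with TopHat2 2.0.14 and Bowtie2 2.2.5 and deposited whole-number counts per Ensembl gene from HTSeq 0.6.1 (versions from the submitters' processing notes, which name mm10). The strand setting of HTSeq is not given in the sources used here. The deposited counts had no normalization, and 5 summary lines per file were left out. Reads with more than 1 alignment were not counted on genes by the authors' counting, which lowers genes with near-identical copies.

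Symbols and positions came from GENCODE M21 (GRCm38) for 46488 of 46983 genes. Exon lengths, transcripts and shared exon bases came from the same source, whereas the paper counted reads on an Ensembl release of GRCm38. The exons counted can therefore differ from those measured, and the part of this in the levels per kilobase was not tested. Diet was tested in R 4.3.3 with edgeR 4.0.16 (filterByExpr, TMM, estimateDisp, quasi-likelihood test, HFA against CFA, no covariates), and p-values were adjusted by Benjamini-Hochberg over 15610 genes, called under 0.05. The study's model also held cage, which is not in the labels. The common biological coefficient of variation was 0.409. Log2 CPM used a prior count of 2. The SE given for edgeR is an approximation, the absolute log2 fold change divided by the square root of the F statistic. Alternatives used DESeq2 1.42.0, limma 3.58.1, other scalings and filters, covariates and left-out libraries. Correlations were tested with all 5040 permutations, in scipy 1.17.1. The edgeR test was first run on simulated data, with planted changes larger than that of any member in the fit of all 10 libraries. Its power for changes as small as those of the members was not tested. Reads carry no molecular identifiers. No pair among 45 pairs of libraries was a copy (highest r 0.983).

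The text names the 10 members, the remaining EGF-family ligands, up to 3 genes per pathway list with an unadjusted p under 0.05, and the 2 nearest genes of each member with a mean of at least 1 CPM, except for 1 gene that is not reported here. Members, lists and tests were chosen with earlier results of these data known. The muscle covariate, the fit without the 3 libraries rich in lymphoid markers and the correlations centred by diet were added after seeing the data. Promoter windows were taken from RefSeq for 7 of the 10 members, with chromosome 18, where Hbegf lies, left out.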

Additional observations from a re-analysis of the deposited data

Results flagged for a closer look

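Of 34 groups of 5 libraries examined (17 named genes in each diet), 3 held a library that stood apart from the other 4 by Dixon's criterion, and chance alone meets it in about 1 in 20 groups. Egfr was 34.0 CPM in the CFA library T1334, where the other CFA libraries had 77.2 to 93.9 CPM. Erbb3 was 23.0 CPM in the HFA library T2334, where the other HFA libraries had 82.5 to 104 CPM. Both libraries were rich in lymphoid markers and low in luminal markers, and the part of this in the values was not tested. T1234, also rich in lymphoid markers but highest in luminal markers, had 84.3 CPM of Egfr and 147 CPM of Erbb3. Nrg1 was 1.03 CPM (15 reads) in the CFA library T1224, where the other CFA libraries had 0.224 to 0.455 CPM.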

How the results depend on the processing

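No member passed the adjusted threshold under any of the 24 alternative settings, and 197 of 216 fold changes of tested members kept their sign. The number of genes called over all genes moved from 0 to 33 with the likelihood ratio test, 60 with DESeq2, 1037 with limma voom and quality weights, 1 with the epithelial covariate, 2 with the lymphoid covariate and 469 without the 3 libraries rich in lymphoid markers. It was 0 to 6 with 1 library left out, the 6 without T2334. The causes were not tested. With the epithelial covariate the log2 fold change reversed to 0.17 for Egfr, 0.0903 for Erbb2, 0.59 for Erbb3 and 0.39 for Btc. With 1 library left out the log2 fold change of Egfr ran from -0.73 (without T2224) to -0.19 (without T2314), of Erbb2 from -0.71 (T1334) to -0.33 (T2334), of Erbb3 from -0.49 (T1334) to -0.06 (T2334), of Erbb4 from 0.12 (T2314) to 0.47 (T2334), of Egf from 0.43 (T1234) to 0.96 (T1334), of Tgfa from -0.49 (T1224) to -0.34 (T1324) and of Nrg4 from 0.03 (T2234) to 0.24 (T2334). Btc also reversed to 0.0318 with limma voom and 0.14 without the 3 libraries rich in lymphoid markers, and ran from -0.25 to 0.14 with 1 library left out. Hbegf, at 0.02, reversed to -0.0412 with upper-quartile scaling, -0.0429 with no filter, -0.00013 with DESeq2, -0.0532 with limma voom, -0.0762 with quality weights, -0.0043 with the lymphoid covariate and -0.0136 without the 3 libraries, and ran from -0.20 to 0.13 with 1 library left out. Areg reversed to -0.36 with limma voom, -0.11 with quality weights and -0.23 with that digit of the title (the second) in the model, and ran from -0.35 to 0.37 with 1 library left out.

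Socs5, Src, Stat5b, Ccnd1 and Spred1 passed the adjusted threshold with quality weights (adjusted p = 0.0394, 0.0489, 0.0359, 0.0413 and 0.0417 by limma voom). Adam17 (adjusted p = 0.0444) and Myc (0.0359) did so in the same limma voom fit, which called 1037 of 15610 genes. Ccnd1 also did so without the 3 libraries (adjusted p = 0.0453, edgeR), where 469 of 15759 genes were called. The adjusted p of Socs5, Src, Stat5b, Ccnd1 and Spred1 reached 0.999 under other settings. Upper-quartile scaling moved the median log2 fold change of all genes from 0.06 to -0.0023, and 3 of 9 members and 3 of 8 sheddases were then higher. With the longest transcript the level per kilobase moved to 4.84 for Egf, 1.72 for Tgfa, 0.913 for Hbegf, 0.0699 for Nrg1 and 37.6 for Nrg4. The last 3 title digits recur in 4 libraries of each diet, and taken as a replicate block over these 8 libraries they gave 0 called genes and reversed Areg to -1.30. The correlations of deviations between these pairs were 0.298, -0.294, 0.111 and 0.41, so the digits were not taken as a pairing. Among the 10 members, Nrg1 (0 to 15 reads) and Hbegf (16 to 49 reads) had the fewest reads, and Nrg2 had 6 to 27.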

Other observations

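The marker lists set beside the family also varied between libraries and diets, with 0 genes past the adjusted threshold in any list (edgeR). Brown and beige fat markers, which Nrg4 followed, were higher in HFA for 5 of 5 genes, with a median of 1.83 on the log2 scale and 2 of 5 at an unadjusted p under 0.05 (summed level 61.3 to 599 CPM in CFA and 124 to 1854 CPM in HFA). Muscle markers, which Egf followed, were higher for 6 of 6 genes with a median of 0.69, and 0 of 6 had an unadjusted p under 0.05. Luminal markers, which Erbb2 followed, were lower for 7 of 8 genes with a median of -0.51, and fibroblast markers, which Egfr followed, were lower for 4 of 6 genes with a median of -0.37. Schwann cell markers were higher for 5 of 6 genes with a median of 0.82, and 3 of 6 had an unadjusted p under 0.05, beside 7.36% of all genes tested. Fat cell markers were higher for 6 of 7 genes (median 0.18), endothelial markers for 4 of 5 (median 0.16) and macrophage markers for 5 of 5 (median 0.55).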
